A study of Drosophila melanogaster with 3 samples.

Results

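The TOR, insulin and Myc growth pathway was followed through 9 protein-coding genes, given as a list of names, among 13968 nuclear protein-coding genes. They are *Tor* (called *mTor* in the annotation used here), *raptor*, *S6k*, *Thor*, *InR*, *Pi3K21B*, *Akt*, *Myc* and *REPTOR*. Bdp1 binding at them was mapped by ChIP-seq, the sequencing of DNA that precipitates with a protein, in 3 biological replicates of whole *Drosophila melanogaster* embryos of mixed sex, aged 0 to 24 h. The embryos came from the CG9305-GFP strain, a transgenic line that makes CG9305, the Bdp1 protein, with GFP at its C-terminus, and the chromatin was sonicated to 200 to 800 bp and precipitated with an antibody against GFP. All 3 samples form 1 group of 1 genotype with no treatment, so no group was set against another, and no test of the members was made. Whether untagged Bdp1 was also present is not given in the sources used here. In whole embryos, strong binding in few cells and weak binding in many cannot be told apart.

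Bdp1 belongs to TFIIIB, which recruits RNA polymerase III (Pol III) to the genes of tRNAs, 5S rRNA, U6 snRNA and further short transcripts. The growth pathway is known as a regulator of Pol III output. Insulin-like peptides bind the insulin receptor, PI3-kinase and Akt pass the signal on, and the TOR kinase in its raptor-containing complex (TORC1) raises protein synthesis and, through the Pol III repressor Maf1, tRNA synthesis. *Drosophila* Myc, a transcription factor, also stimulates Pol III. The genes below are protein-coding genes read by RNA polymerase II, and what was asked is where Bdp1 lies at the genes of the regulators themselves.

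Each locus was described by the authors' peak lists on the dm6 genome build. The optimal list holds the 3206 peaks that the authors kept from all 3 replicates by the irreproducible discovery rate (IDR) procedure. Each replicate also has a relaxed list of 30000 entries, which takes in background as well. A gene was counted as having a 5′ peak when a peak overlapped by at least 1 bp the stretch within 100 bp of a 5′ end of one of its transcripts. Peak signal was divided by a median, that of the optimal peaks as measured in that replicate (43.5, 56.3 and 50 in replicates 1, 2 and 3), so a relative signal of 1 is a typical optimal peak.

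Of the 9 genes, 5 had an optimal 5′ peak, 55.6% of them, against 13.7% of all protein-coding genes. The members were chosen with earlier results of these data known, so this is not an unbiased share for the pathway. Among 48 further pathway genes, described below, it was 18.8%. The 5 members with a peak were the genes of the insulin receptor, *InR*, of the PI3-kinase regulatory subunit, *Pi3K21B*, of the TOR kinase, *Tor*, of the translational repressor 4E-BP, *Thor*, and of *REPTOR*, a transcription factor that TORC1 holds in check. The 4 without were *Akt*, *raptor*, *S6k* and *Myc*. Genes with several transcript starts have more places to be counted: among the members with at least 2 annotated 5′ ends 4 of 5 had an optimal peak, against 22.4% of all such protein-coding genes, and among those with 1 it was 1 of 4, against 10.6%. When the summit of the peak itself had to lie within 100 bp of a 5′ end the count was 3, *Tor* and *REPTOR* dropping out, against 6.54% of all protein-coding genes.

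The relative signals of the 5 genes were moderate. Their means ran between 1.05 and 2.82, whereas the 236 optimal peaks at Pol III genes had a median of 8.26. The 1790 protein-coding genes with an optimal 5′ peak and a value in every replicate had a median of 0.988 and quartiles of 0.755 and 1.52. The 5 members all lay above that median, *Thor* and *Tor* close to it and *REPTOR* above 93.9% of these genes.

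**Figure D1:**
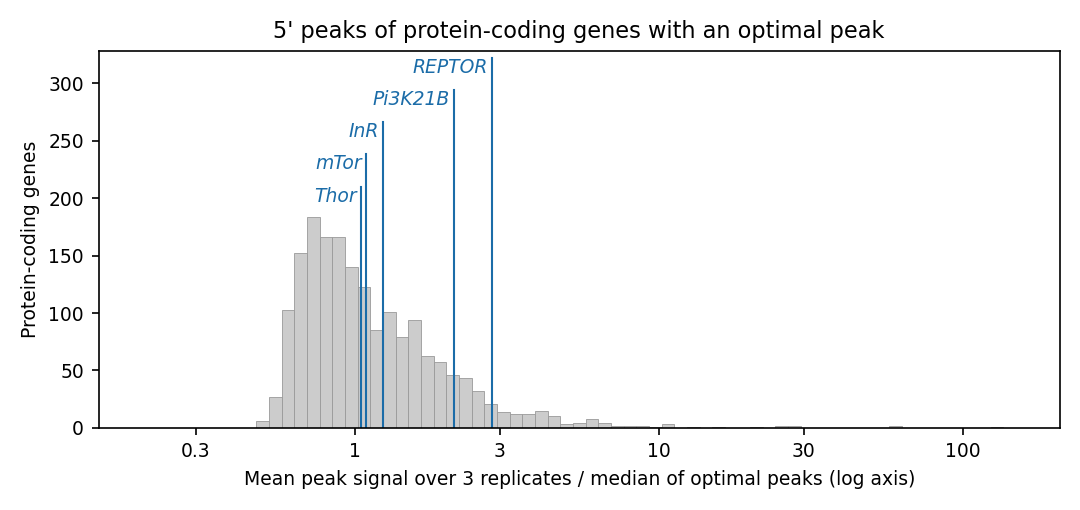
Number of protein-coding genes (vertical axis) by the mean relative signal of their optimal 5′ peak over 3 replicates (horizontal log axis), for the 1790 genes with a value in every replicate. Vertical lines mark the 5 growth pathway genes, whose line heights carry no value: *Thor* at 1.05 and *mTor* at 1.09 sit in the bulk of the distribution, *Pi3K21B* at 2.12 and *REPTOR* at 2.82 in its upper part.

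The sequences at these 5′ peaks are shown because each peak was counted for a mapped start. A Pol III promoter element, the B box of tRNA genes, can be looked for in these sequences. No element specific to other Pol III genes was searched for. They are read from the NCBI Release 6 genome (dm6), 5′ to 3′ on the strand of the gene. For *Pi3K21B*, *Thor* and *InR* they run from 150 bases before the gene's start through the first 30 bases of the transcript, at chr2L:297730-297909 (+ strand), chr2L:3478284-3478463 (+ strand) and chr3R:21619292-21619471 (− strand). Capitals mark TATAAA, the TATA box, or GAGAG, a motif bound by the Trl protein, on either strand.
Pi3K21B: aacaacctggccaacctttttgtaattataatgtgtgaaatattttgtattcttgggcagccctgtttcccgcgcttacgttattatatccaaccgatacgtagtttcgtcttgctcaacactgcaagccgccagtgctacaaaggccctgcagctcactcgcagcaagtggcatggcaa
Thor: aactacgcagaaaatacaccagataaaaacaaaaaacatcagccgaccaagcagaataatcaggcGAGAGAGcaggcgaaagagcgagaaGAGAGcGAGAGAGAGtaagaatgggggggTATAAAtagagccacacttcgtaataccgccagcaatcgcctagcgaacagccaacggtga
InR: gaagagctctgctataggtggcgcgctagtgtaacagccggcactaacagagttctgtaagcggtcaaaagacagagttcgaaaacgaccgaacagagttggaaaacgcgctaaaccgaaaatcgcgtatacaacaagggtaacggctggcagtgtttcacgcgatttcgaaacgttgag

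For *REPTOR* and *Tor* the peak summit lay farther from the start, so the bases around the summit are given, chr3R:24572528-24572728 (− strand) and chr2L:13004113-13004283 (+ strand), with the same use of capitals. Neither stretch holds a start of its gene. The *Tor* stretch lies between the starts of *Tor* and of the divergent gene *Vha68-1*, and nearer to that of *Vha68-1*.
REPTOR: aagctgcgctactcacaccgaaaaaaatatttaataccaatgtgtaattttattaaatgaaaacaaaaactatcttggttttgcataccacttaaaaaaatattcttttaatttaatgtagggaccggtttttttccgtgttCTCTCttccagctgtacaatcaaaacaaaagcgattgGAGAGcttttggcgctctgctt
Tor: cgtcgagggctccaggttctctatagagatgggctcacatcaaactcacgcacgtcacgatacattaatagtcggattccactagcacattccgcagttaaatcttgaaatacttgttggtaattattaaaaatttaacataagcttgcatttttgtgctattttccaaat

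None of these stretches holds the core of the Pol III B box, GTTCGANNC, the element inside tRNA genes that TFIIIC reads before TFIIIB is placed. In the 300 bases around the start of each gene (250 before, 50 after and both strands, with overlaps between motifs allowed), it was found in 0 of the 9 members and in 2.77% of 13960 protein-coding promoters. The start used for these promoters is the outermost one. *REPTOR*, whose 5′ peak lies at an internal start, had no optimal peak there. Around the summits, in windows of 201 bases, the B box core was found at 0 of the members' 10 optimal peaks and at 4.55% of all 3206 optimal peaks. *Thor* has a TATAAA that begins 31 bases before its start, and a run of GAGAG matches that begin between 85 and 50 bases before it, some overlapping one another. TATAAA also begins 167 bases before the start of *Tor* and 229 before that of *InR*, and 45.8% of all promoters hold one. In the summit windows TATAAA was found at 0 of the members' 10 optimal peaks, against 29.6% of all optimal peaks. GAGAG stood in the promoters of *Thor*, *Akt* and *Myc*, against 29.7% of all promoters, and within the summit windows of *REPTOR* and of one intronic *InR* peak, against 24.4% of all optimal peaks.

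The DRE, TATCGATA, a promoter element of *Drosophila* growth genes, began 79 bases before the start of *raptor*, which had no optimal peak, and in no other member, against 9.36% of all promoters. The E-box CACGTG, the site bound by Myc and Max, was in 0 member promoters and 4.2% of all, and in 1 summit window, that of an *InR* intron peak, against 2.87% of all optimal peaks. Motif 1 (GGTCACAC) was in 0 member promoters and 7.69% of all. The forkhead motif TGTTTAC, the kind of site that FOXO binds, was in 0 member promoters and 9.19% of all. It stood in 1 summit window, that of *Thor*, a known FOXO target, against 6.99% of all optimal peaks. This match is on the opposite strand of *Thor*, 95 bases after its start, in the 5′ UTR at chr2L:3478519-3478546 (+ strand), with the motif in capitals.
Thor 5′ UTR: cgcagtttgtGTAAACAatcaaattgtc

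At the receptor end of the pathway, *InR* (FBgn0283499, chr3R:21570248-21619321, − strand) had an optimal peak at its outermost start, with the summit 95 bp upstream, at chr3R:21619218-21619613. The deposited signals there were 42.9, 81.4 and 64.4 in replicates 1, 2 and 3, that is relative signals of 0.986, 1.45 and 1.29. Their mean was 1.24 ± 0.234 (SD, n = 3). In each replicate the peak stood among the 3206 strongest of the 30000 relaxed peaks, at ranks 1650, 915 and 1056. The other 3 annotated 5′ ends of the gene had no optimal peak.

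*Pi3K21B* (FBgn0020622, chr2L:297880-305233, + strand), the adaptor that ties PI3-kinase to the activated receptor, had its optimal peak almost on the start, at chr2L:297661-298056 with the summit 21 bp upstream. The deposited signals were 57.9, 138 and 129, and the relative signals 1.33, 2.45 and 2.58. Replicate 1 was lower than the other replicates, and the mean was 2.12 ± 0.688 (SD, n = 3). This was above 87.9% of the 1790 protein-coding genes with an optimal 5′ peak and a value in every replicate. The second 5′ end of *Pi3K21B*, 3826 bp downstream, had no peak of any list.

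*Tor* (FBgn0021796, chr2L:13004480-13013197, + strand), which encodes the kinase of both TOR complexes, owed its call to a peak shared with a neighbour. *Vha68-1*, the gene of a vacuolar ATPase subunit, is read the other way from a start 373 bp upstream of that of *Tor*. The summit of the peak at chr2L:13004000-13004395 was 282 bp upstream of *Tor* and 91 bp upstream of *Vha68-1*, and the peak overlapped the *Tor* window by 16 bp. Its relative signals were 0.964, 0.798 and 1.49, with a mean of 1.09 ± 0.364 (SD, n = 3). In replicate 2 the relaxed peak ended 47 bp short of the *Tor* window, so the peak reached the window of *Tor* in replicates 1 and 3 only. Signal of the 2 starts cannot be told apart.

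*Thor* (FBgn0261560, chr2L:3478434-3479612, + strand) had a peak centred on its start region, at chr2L:3478306-3478701. It has annotated 5′ ends 88 bp apart, and the summit lay between them, 70 bp after the first and 18 bp before the second, in a 5′ UTR exon. The relative signals of 0.926, 1.04 and 1.19 were the closest together of the 5 genes, with a mean of 1.05 ± 0.13 (SD, n = 3).

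*REPTOR* (FBgn0039209, chr3R:24557368-24582864, − strand) had the highest 5′ signal of the 9 genes, and it lay at an internal start. The peak was listed at chr3R:24572535-24572747, 213 bp wide. The median optimal peak is 396 bp, which is also the exact width listed for the 5′ peaks of *InR*, *Pi3K21B*, *Tor* and *Thor*. In replicate 2 the relaxed peak ran from 24572408 to 24572811, past the optimal peak on both sides. The caller is not given, so the width was not read as a trait of binding. The summit was 133 bp upstream of a 5′ end 10369 bp into the gene, within an intron of the longer transcripts. The deposited signals were 145, 120 and 150, the relative signals 3.33, 2.13 and 2.99, and the mean 2.82 ± 0.616 (SD, n = 3). At the outermost start there was only a relaxed peak in replicates 1 and 3, at relative signals of 0.341 and 0.382 and ranks 10004 and 8218. With the outermost 5′ end of each gene alone, 4 members had an optimal peak, *REPTOR* dropping out, against 12.1% of all protein-coding genes.

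In the order of means *REPTOR* came before *Pi3K21B*, *InR*, *Tor* and *Thor*, and no gene differed from its neighbour in this order beyond the spread between replicates. All 3 values of *REPTOR* were above all 3 of *InR*, of *Tor* and of *Thor*, and all 3 of *Pi3K21B* were above those of *Thor*. *REPTOR* and *Pi3K21B* overlapped, as did *Pi3K21B* with *InR* and *Tor*, and *InR*, *Tor* and *Thor* with each other. The summits lay between 282 and 18 bp upstream of the nearest 5′ end, and the median over protein-coding genes was 105 bp upstream, with quartiles of 170 and 43 bp.

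**Figure D2:**
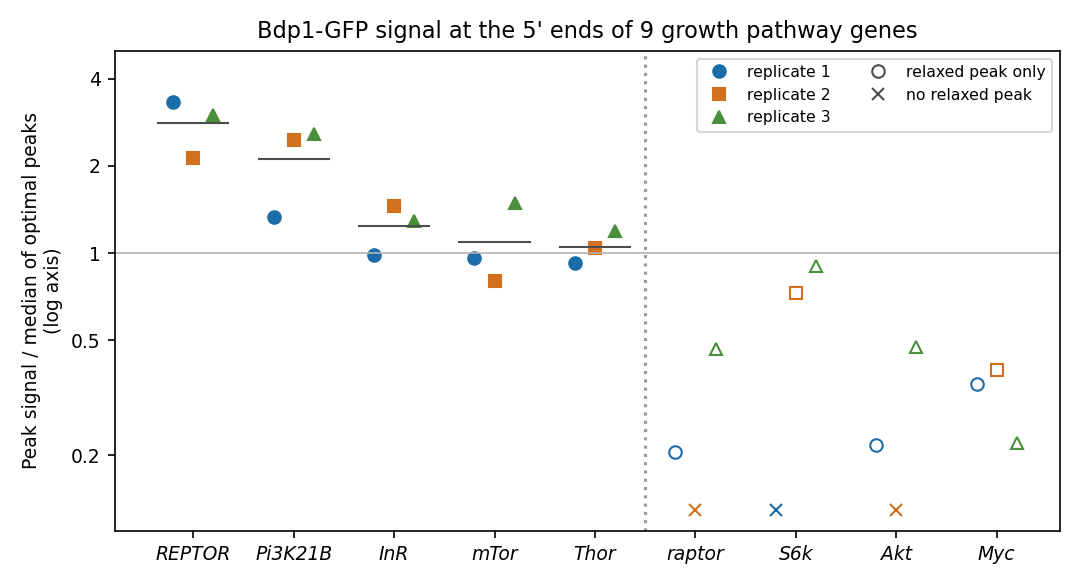
Relative Bdp1-GFP signal (peak signal over the replicate's median at optimal peaks, log axis) at the 5′ ends of the 9 genes, with a symbol for each of 3 replicates and a bar for the mean where there is an optimal peak. Open symbols right of the dotted line are relaxed peaks of genes without an optimal peak and crosses mark replicates with none: the *S6k* values of 0.726 and 0.904 come nearest to the 5 genes on the left, and the *Myc* values lie between 0.221 and 0.394.

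Among the 4 genes without an optimal 5′ peak, *S6k* (FBgn0283472, chr3L:5797549-5810931, − strand), the kinase that TORC1 activates to promote translation, stood at the edge of the authors' list. Its peak in the pooled relaxed list had rank 3210 and a relative signal of 0.612, and the last peak of the optimal list has rank 3206 and 0.613. Replicate 1 had no relaxed peak at its start. Replicate 2 had a pair of overlapping peaks there, at relative signals of 0.726 and 0.672 (ranks 2565 and 2912), and so did replicate 3, at 0.904 and 0.349 (ranks 1874 and 9983). Between them the summits lay from 219 bp downstream to 27 bp upstream of the start. The start of *kri*, read the other way, is 42 bp upstream, so signal at the starts of these genes cannot be told apart. The bases between and around both starts are shown for that reason, chr3L:5810902-5811002 (− strand), with no searched motif in them.
S6k: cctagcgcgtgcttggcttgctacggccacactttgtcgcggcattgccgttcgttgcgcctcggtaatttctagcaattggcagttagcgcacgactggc

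*Myc* (FBgn0262656, chrX:3373159-3391697, + strand) had a weak relaxed peak at its start in every replicate, with summits 14 to 32 bp downstream. The relative signals were 0.353, 0.394 and 0.221, and the ranks 9336, 8280 and 27143 of 30000, well below the optimal list. The long non-coding RNA lncRNA:CR44999 is annotated from the same base on the same strand. Its nearest Pol III gene, tRNA:Gln-TTG-2-1, was 35.8 kb away.

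*raptor* (FBgn0029840, chrX:6082634-6090201, − strand), the TORC1 subunit that binds substrates, and *Akt* (FBgn0010379, chr3R:16099228-16105670, + strand), the kinase between PI3-kinase and TOR, each lacked a relaxed 5′ peak in replicate 2. *raptor* had a relaxed peak of 0.206 in replicate 1 and of 0.466 in replicate 3, and the start of asRNA:CR44959, read from the opposite strand, lies within 100 bp of the same peaks. *Akt* had one of 0.217 in replicate 1 and of 0.473 in replicate 3. The start of *Mhcl*, read the other way, lies within 100 bp of the replicate 1 peak, but not of the replicate 3 peak. The optimal summit nearest to a 5′ end of *Akt* was 1339 bp away, inside the divergent gene *Mhcl*.

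Replicate by replicate the count of members varied little among the strongest 3206 peaks. Such a peak lay at a 5′ end of 5 members in replicate 1, 5 in replicate 2 and 6 in replicate 3, against 13.2%, 11.5% and 15.1% of protein-coding genes. Replicate 2 held *S6k* in place of *Tor*, and replicate 3 held both. With all relaxed peaks the counts were 8, 6 and 9, against 36.8%, 36.6% and 40.8%. A relaxed peak in all 3 replicates was found at 5 members, against 21.3% of protein-coding genes. These 5 were *InR*, *Pi3K21B*, *Thor*, *REPTOR* and *Myc*, and so not the 5 with an optimal peak.

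Inside the genes, Bdp1 peaks were found in *InR*, *REPTOR* and *Thor*. An optimal summit lay in the body of these 3 of 9 genes, against 8.91% of protein-coding genes, and long genes hold more. *Thor*, whose only summit is that of its 5′ peak, is under 2 kb long, a class in which 1.91% of genes hold a summit. *InR* and *REPTOR* are both in the class of 20 to 50 kb, in which 33.9% do. *Tor*, *raptor*, *Pi3K21B* and *Akt* had none in a class of 5 to 10 kb with 14.6%, and *S6k* and *Myc* none in a class of 10 to 20 kb with 27.4%. Counting only summits over 500 bp from every 5′ end of the gene left *InR* and *REPTOR*, 2 of 9, against 5.44% of protein-coding genes. The member bodies, 138 kb in all, held 7 optimal summits or 5.08 per 100 kb, against 1.92 per 100 kb over the bodies of all protein-coding genes. These summits include those of the 5′ peaks of *Thor* and *REPTOR*, and all but that of *Thor* lie in *InR* and *REPTOR*.

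The receptor gene *InR* alone held 4 of these summits, 8.15 per 100 kb of its 49.1 kb. The highest was in an intron at chr3R:21590715-21590961, 28.5 kb into the gene and 647 bp upstream of an internal 5′ end. It had relative signals of 2.58, 3.69 and 1.75, a mean of 2.68 ± 0.97 (SD, n = 3), and all 3 values were above all 3 at the outermost start of the gene. It was listed at 247 bp and the other *InR* peaks at 396 bp each, with the same limit on reading widths as at *REPTOR*. The internal start itself had a relaxed peak only in replicate 2, at 0.576. The 201 bases around the summit are given because they carry the highest signal of the locus, chr3R:21590738-21590938 (− strand), with GAGAG on either strand in capitals.
InR intron: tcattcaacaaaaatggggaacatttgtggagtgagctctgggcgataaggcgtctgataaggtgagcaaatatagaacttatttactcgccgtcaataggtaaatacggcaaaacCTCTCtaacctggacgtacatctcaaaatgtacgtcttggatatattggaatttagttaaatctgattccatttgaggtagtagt

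The other *InR* peaks were weaker or less even between replicates. In the first part of the gene, the peak at chr3R:21614829-21615224 had relative signals of 0.504, 0.787 and 0.456, and only replicate 2 had it among its strongest peaks. The intronic peak at chr3R:21613354-21613749, the one with the E-box, had 0.381, 2.21 and 1.3. In replicate 1 a higher relaxed peak, of 0.843, overlapped its interval with a summit 246 bp away, so the mean was 1.3 ± 0.917 by the peak over the summit and 1.45 ± 0.699 by the highest peak over the interval (SD, n = 3 each). The last peak lay in a coding exon, 39.1 kb into the gene at chr3R:21580060-21580455, with 0.84, 0.697 and 1.42 and a mean of 0.987 ± 0.385 (SD, n = 3). *REPTOR* had a second peak in an intron, 15.3 kb into the gene at chr3R:24567389-24567784, with 0.605, 1.67 and 1.43 and a mean of 1.23 ± 0.557 (SD, n = 3). Replicate 1 was the lowest there, at rank 3494.

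**Figure D3:**
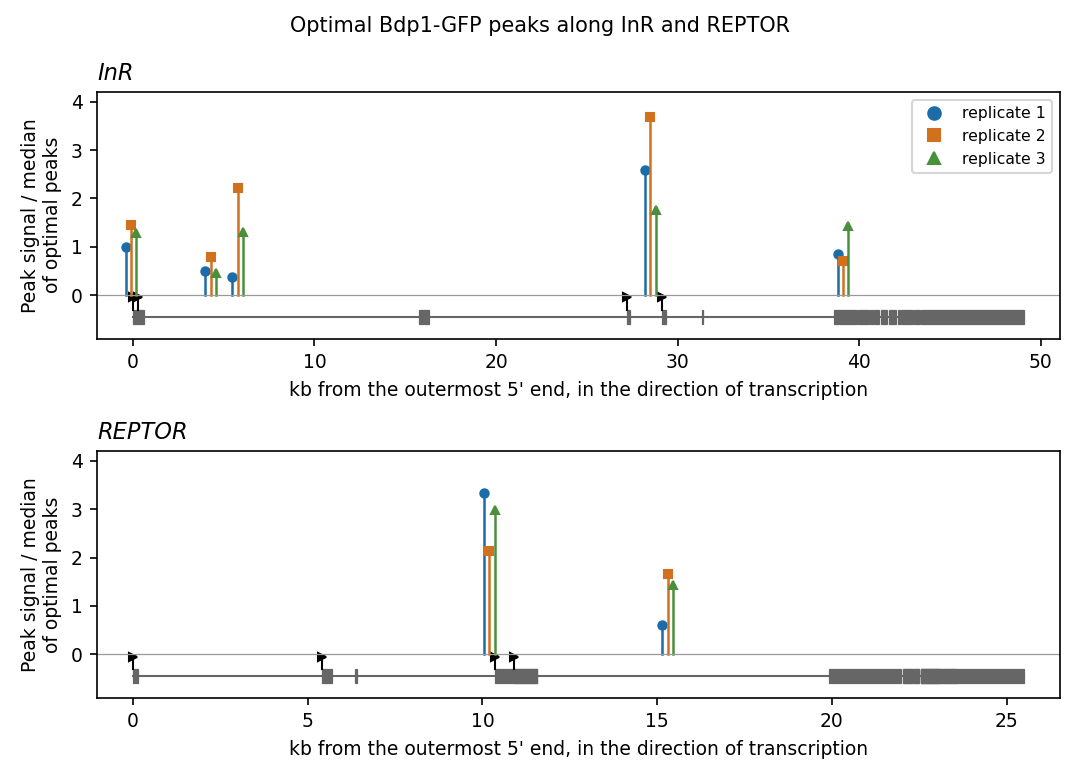
Optimal Bdp1-GFP peaks along *InR* (top) and *REPTOR* (bottom): kb from the outermost 5′ end in the direction of transcription against relative peak signal in each of 3 replicates, set slightly apart sideways for view. Boxes are exons of all transcripts and arrowheads annotated 5′ ends; the highest peaks lie at 28.5 kb in *InR* and 10.2 kb in *REPTOR*, away from the outermost starts.

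*REPTOR* was also the only one of the 9 next to Pol III genes. The U6 snRNA gene snRNA:U6:96Ac ends 46 bp from the last base of *REPTOR*, with snRNA:U6:96Ab and snRNA:U6:96Aa beyond it. The peak over the 96Ab and 96Ac genes, chr3R:24556491-24557426, had relative signals of 66.4, 70.2 and 84.0, a mean of 73.5 ± 9.28 (SD, n = 3), and ranks of 3, 4 and 2 in the replicates. It overlapped the 3′ end of *REPTOR* by 59 bp, with its summit 262 bp outside the gene, so it counted neither as a 5′ peak nor as a body summit of *REPTOR*. The peaks at snRNA:U6:96Aa and at tRNA:Asp-GTC-1-11 farther out had means of 3.71 ± 1.49 and 7.21 ± 1.05 (SD, n = 3 each). The 5′ peak of *REPTOR*, 15.3 kb from snRNA:U6:96Ac, had 3.33, 2.13 and 2.99. The lowest of these peaks at Pol III genes, that of snRNA:U6:96Aa, had 3.06, 5.42 and 2.66. The values of these peaks overlap, with *REPTOR* the lower in replicate 2. The median of the 236 optimal peaks at Pol III genes was 8.26. For the other 8 members the nearest Pol III gene was between 35.8 kb (*Myc*) and 1633 kb (*Pi3K21B*) away.

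A list of 48 further genes of the pathway was read by role. Of these, 9 had an optimal 5′ peak, 18.8%, against 13.7% of all protein-coding genes, and the share is close to that background. It was 0 of 8 among the genes of insulin-like peptides and 0 of 2 among the receptor's adaptors *chico* and *Lnk*. The genes with a peak were *Sin1* among 3 TORC2 genes, *Rheb* among the 3 of TSC and Rheb, *Wdr24* and *Sesn* among 12 of nutrient input at the lysosome, *scyl* among 4 of inhibitors, and *sgg*, *Mnt*, *Max* and *bigmax* among 12 of outputs. *Maf1*, the Pol III repressor itself, had no relaxed 5′ peak in any replicate. Most protein-coding genes lack one in a given replicate, since 36.8%, 36.6% and 40.8% had one in replicates 1, 2 and 3.

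Of these genes *sgg*, which encodes the GSK3 kinase, had relative signals of 2.09, 3.55 and 1.96 with a mean of 2.53 ± 0.882 (SD, n = 3). *Sesn*, the gene of sestrin, an inhibitor of TORC1, had 3.95 in replicate 2 and 3.16 in replicate 3. Its value in replicate 1 was 0.331 by the peak over the summit and 2.23 by the highest peak over the interval, which gives means of 2.48 ± 1.9 and 3.11 ± 0.856 (SD, n = 3 each), and the peak is shared with *CG46429*. It overlapped the *Sesn* window by 6 bp, and only 1 of 3 replicates had a relaxed peak that reached this window. *bigmax*, the partner of the sugar sensor Mondo, had 1.39, 1.17 and 1.46 with a mean of 1.34 ± 0.152 (SD, n = 3), at a start region shared with *Hmu*.

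*Sin1*, a TORC2 subunit, had a mean of 0.941 ± 0.465 and shared its peak with *CG17385*. *Wdr24*, of the GATOR2 complex, had 0.883 ± 0.386 and shared it with *IntS11* (SD, n = 3 each). *Max*, the partner of Myc, had 0.711 ± 0.222, with *CG42374* and *Mettl5* at the same peak, and *Mnt*, its repressor partner, had 0.695 ± 0.114 (SD, n = 3 each). *Rheb*, the GTPase that activates TORC1, had 1.3 in replicate 1, no relaxed peak over the summit in replicate 2 and 1.09 in replicate 3. It shared its peak with *CG2931*. *scyl*, a TORC1 inhibitor, had 0.461 and 1.49 in replicates 1 and 2 and none in replicate 3.

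This count changed more than that of the 9 members when strong peaks in given replicates were asked for. When the peak had to be among the strongest of both other replicates, 3 genes were left without replicate 1 (*Sesn*, *sgg* and *bigmax*), 7 without replicate 2 and 4 without replicate 3, against 9.1%, 9.83% and 7.95% of protein-coding genes. Under the same settings the 5 members with a 5′ peak stayed 5. These settings started from the optimal list, made from all 3 replicates, so no replicate was wholly left out. They asked for overlap with the optimal peak and not with the 5′ window. *Tor* was kept in this way, although its peak in replicate 2 ended 47 bp short of its window.

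**Figure D4:**
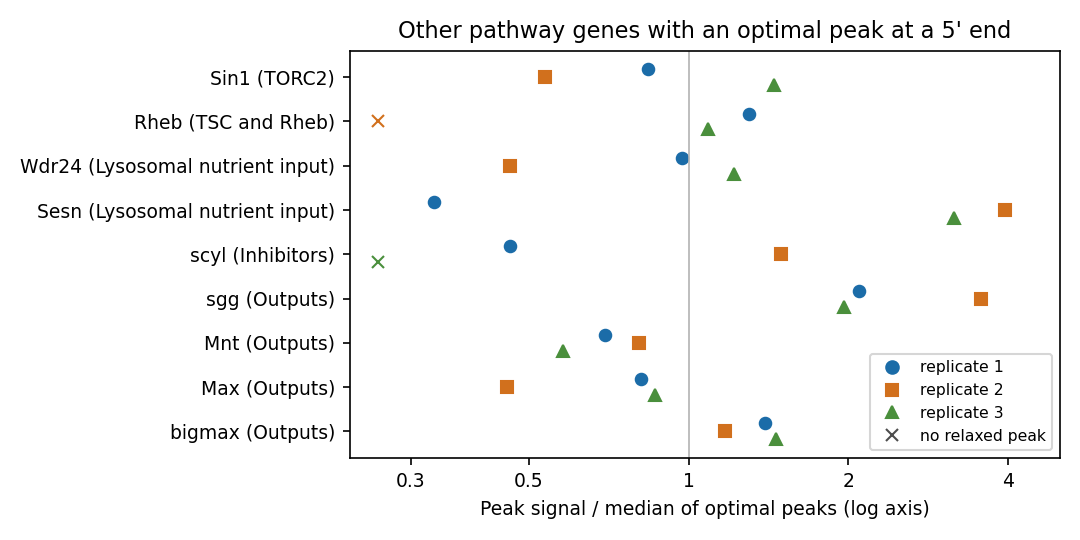
Relative Bdp1-GFP signal in each replicate (horizontal log axis) at the 9 further pathway genes with an optimal 5′ peak, with the role of each gene in brackets; crosses mark a replicate with no relaxed peak over the summit. Values of *bigmax* lie within 1.17 to 1.46, and those of *Sesn* run between 0.331 and 3.95, its replicate 1 value being that of the peak over the summit.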

How the data were processed

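The labels put 3 biological replicates into 1 group; whether they came from separate embryo collections is not stated, so the spread may be technical. Column 7 of the narrowPeak lists deposited by the authors is the peak signal, with a control alignment as input to the calling, per the text record deposited with the samples. Not given in the sources used here are aligner, caller, filters, IDR threshold and read depth, so no precision from depth can be stated, and the scale of the signal between lists is unknown: hence the division by each list's median. The values of a member are those of the highest relaxed peak that contains the optimal summit. The dm3 lists were not used. Columns left without a sample numbered 0.

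Genes and 5′ ends came from Ensembl release 115 (BDGP 6.54), sequence from the NCBI assembly of the same genome. Overlaps were computed with Python 3.11.15, pandas 2.3.3, NumPy 2.4.6 and pysam 0.24.0, and the overlap code was tested on simulated peaks. All members were named, and of the 48 further genes those with an optimal 5′ peak by rule. Those named only for a role or a body summit were chosen after their values were seen. Values of separate genes are said to differ only where all 3 of one exceed all 3 of the other. The members and lists were chosen with earlier results of these data known. The motif search at summits and the signal by interval were added after the data were seen. Alternatives covered stricter peak sets, each replicate left out, other windows, other summit rules and ranks.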

Additional observations from a re-analysis of the deposited data

How the results depend on the processing

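Each count is given with the share of all protein-coding genes under the same setting. The count of 5 members with a 5′ peak (13.7%) was 5 with the 1603 strongest optimal peaks (6.8%) and with peaks found in at least 2 of 3 replicates (11.9%). It was also 5 without replicate 1, 2 or 3 (9.1%, 9.83% and 7.95%), each time starting from the optimal list of all 3. Windows of 250 and 500 bp gave 5 as well (15.5% and 17.1%), but a wider window can only keep or add genes. The count was 4 with the summit within 250 bp (13.1%, *Tor* lost), 4 with outermost 5′ ends (12.1%), and 3 with the summit within 100 bp (6.54%), where *Tor* and *REPTOR* are lost. The count of 3 with a body summit (8.91%) was 2 without summits near a 5′ end (5.44%) and 4 for any overlap (16.9%), which adds *Pi3K21B*. For the 48 further genes, the count of 9 was 4 with the 1603 strongest peaks (6.8%), 3 to 7 without a replicate (7.95% to 9.83%), 8 with at least 2 of 3 (11.9%), and 9 and 10 in the windows of 250 and 500 bp (15.5% and 17.1%). Of 29 alternative values of the members' 5′ signals, 28 moved by less than 1 SD, but most of these say little. Leaving out 1 of 3 values cannot move a mean by 1 SD. The highest peak over the 5′ window or the optimal interval gave the main value again for every member that had one. The move beyond 1 SD was in the pooled list, where *Thor* was 1.19 against 1.05. By percentile rank within each replicate *Thor* came before *Tor*. The cause of these moves was not tested. *Tor* has no value by the peak over its own window, since replicate 2 has none there.

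No paired analysis was possible because all samples form 1 group. The dm3 lists were not run, as no coordinate was converted. Read depth is unknown, so a gene without a peak is one at which none was listed, not one shown to be unbound. The n of 3 limits every SD.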

Other observations

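Some of the 48 further pathway genes held an optimal summit inside the gene, 7 in all, against 8.91% of protein-coding genes, and 6 of them over 500 bp from every 5′ end, against 5.44%. These shares depend on gene length, with 33.9% of genes of 20 to 50 kb holding a summit. *ImpL2*, whose product binds insulin-like peptides outside the cell, had no optimal 5′ peak but a pair of intronic peaks on chr3L, at 4230386-4230522 and 4228267-4228459. The first had relative signals of 2.09, 2.27 and 1.64, with a mean of 2.0 ± 0.325, and the second 1.58, 2.26 and 1.84, with a mean of 1.89 ± 0.34 (SD, n = 3 each). These values overlap with those of the highest *InR* intron peak. *Lobe* (*PRAS40* in the annotation), a TORC1 inhibitor, held 3 intronic summits in overlapping or nearby peaks, the highest with 1.66, 0.989 and 1.5. *Sesn* had an intronic peak of 1.29 ± 0.462 and *sgg* one of 0.804 ± 0.0571 (SD, n = 3 each). *Mnt* had an intronic peak of 0.298, 1.09 and 0.285, in which replicate 2 alone was high. *Pi3K92E*, the catalytic subunit that works with *Pi3K21B*, had one in its 5′ UTR, 584 bp after its start, with 0.246, 0.752 and 0.674.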
